A study of Mus musculus with 12 samples.

Results

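The liver response to a mammary tumour was compared between mice without and with the gene Mtdh. The comparison sets livers of Mtdh KO mice that carried a Py8119 tumour (KO_tumor, n = 3) against livers of WT mice that carried the same tumour (WT_tumor, n = 3), which are 6 of the 12 RNA-seq libraries of the series. The other 6 are livers of KO and WT mice with no tumour (KO_no_tumor and WT_no_tumor, n = 3 each), and they are given beside the results. All mice were female and age-matched, and each library came from a different mouse. Py8119 is a mouse mammary carcinoma line that derives from a polyoma middle T tumour and is grown as a graft. Age, strain, tumour size, graft time and whether the knockout covers the whole body are not stated in the labels. Each library holds RNA of all cells of a liver, so that fewer cells of a type and less RNA per cell cannot be told apart. A gene was tested if its normalized value was at least 10 in at least 3 of the 6 tumour-bearing libraries, which kept 15945 of 22557 genes.

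Metadherin, the Mtdh product, is a membrane-associated protein of the endoplasmic reticulum and the nuclear envelope that binds the nuclease SND1 and the retinoid X receptor RXRA. RXRA pairs with PPARα, the hepatocyte receptor that switches on fatty acid oxidation, and with LXR, which drives lipid synthesis. A tumour elsewhere in the body reaches hepatocytes mainly through cytokines such as IL-6, which act through STAT3 to raise acute phase proteins, while secretory load in the endoplasmic reticulum is met by the unfolded protein response through ATF6 and XBP1. The series title asks how host MTDH links liver lipid metabolism with CD8 T cells.

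The 6 tumour-bearing libraries held an estimated 12700000 to 43000000 reads, and albumin, the main transcript of hepatocytes, took 8.58% to 12.3% of their signal. KO_tumor replicate 1 stood apart. It had the 12700000 reads where the other 11 libraries had 25700000 to 43000000, it had 2244 tested genes at 0 where the others had 52 to 693, and it correlated with the other 11 at 0.815 on average, where theirs ranged from 0.890 to 0.930. Medians of several lists with low genes are therefore also given without it. The erythroid and cell cycle medians are not, and single low genes are given by replicate. KO_no_tumor replicate 3, with 4.84% of its signal in snoRNA and 5.32% in snRNA, also stood apart. Values are reads divided by the library's size factor and not by gene length, so levels are compared within a gene only. They are given for replicates 1, 2 and 3 in turn, with WT_tumor before KO_tumor where 2 groups are set against each other.

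Mtdh itself read 5290.2, 3954 and 5702 normalized reads in WT_tumor and 1063, 380 and 323 in KO_tumor livers. All 3 KO_tumor libraries lay below all WT_tumor libraries, and replicate 1 kept the most. The KO_tumor mean was 11.8% of the WT_tumor mean, and the log2 fold change on the scale of log2(value + 1) was −3.28 ± 0.35 (SE; limma adjusted p = 0.00423, and 0.125 when the 6 tumour-bearing libraries were fitted alone). In tumour-free livers the change was −3.16, from 4329.6, 5375 and 4973 in WT to 584, 436 and 627 in KO. Mtdh lies at chr15:34082840-34145770 in mm39, on the plus strand. The labels do not state which exons the knockout removes, so the remaining reads cannot be assigned to a part of the gene.

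Over all tested genes, 2 were higher and 2 lower in KO_tumor than in WT_tumor livers by limma at an adjusted p under 0.05, which is 0.0125% of the genes in each direction. Before adjustment, 1077 genes with a positive fold change (6.75%) and 1323 with a negative one (8.3%) had a p under 0.05. In 1385 genes (8.69%) all 3 KO_tumor values lay above all 3 WT_tumor values, and in 1604 (10.1%) all 3 lay below. The median change over all genes was −0.11 and the median SE 0.44. Without KO_tumor replicate 1 the median over all genes was −0.0041. In tumour-free livers the same test called 0 genes higher (0%) and 1 lower (0.00627%), which was Mtdh, with 259 genes at an unadjusted p under 0.05 in either direction.

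The number of calls depended on single libraries. Leaving out WT_tumor replicate 2 gave 131 genes higher and 87 lower. In limma's fit with library weights, which gave KO_tumor replicate 1 a weight of 0.131, there were 1018 genes higher and 1084 lower. That fit gave the largest weights to KO_tumor replicate 3 (4.207) and WT_tumor replicate 1 (2.955), so its calls lean on these livers. Leaving out KO_tumor replicate 1 instead gave 5 genes higher and 4 lower. Fitting the 6 tumour-bearing libraries alone called 0, with 1728 genes at an unadjusted p under 0.05. Genes below that passed only in such fits are given with their values as not passing.

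**Figure D1:**
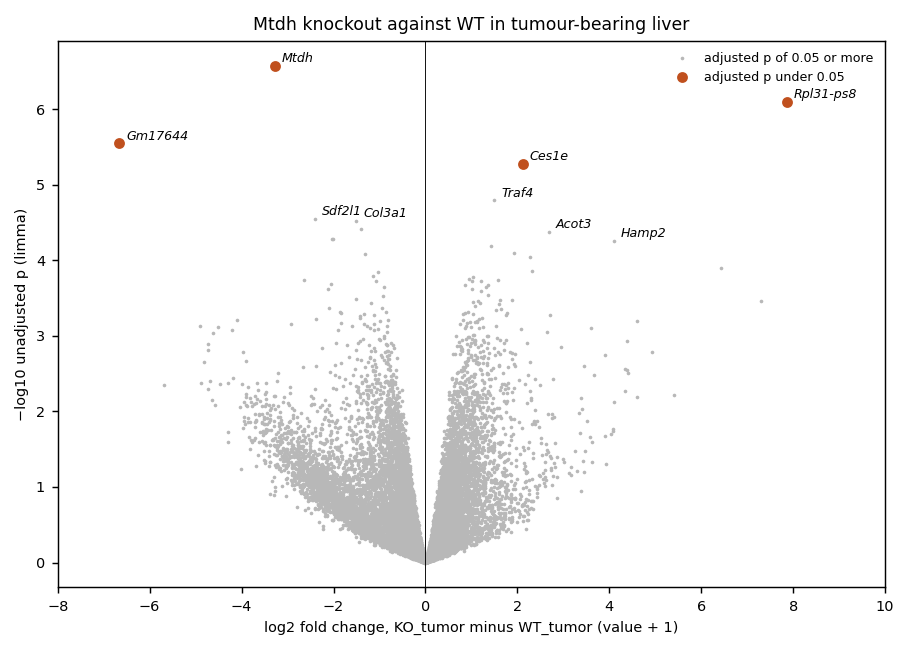
Volcano plot of the 15945 tested genes, with the log2 fold change of KO_tumor against WT_tumor on the x axis and −log10 of the unadjusted limma p on the y axis. Large points mark the 4 genes with an adjusted p under 0.05, and the 5 other labelled genes have adjusted p-values of 0.0509 to 0.0736.

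Ces1e, a carboxylesterase gene of hepatocytes, rose. It read 262, 677 and 498 in WT_tumor and 2476, 1823 and 1597 in KO_tumor livers, a change of 2.11 ± 0.29 (limma adjusted p = 0.021). The tumour-free livers of both genotypes lay between, at 752 to 933, so WT_tumor livers were below that range and KO_tumor livers above it. The interaction of genotype and tumour in Ces1e had an unadjusted p of 0.000287 and did not pass. The call was lost without WT_tumor replicate 3 (limma adjusted p = 0.126), without KO_tumor replicate 2 (0.0697), without both libraries that stood apart (0.0726) and in the fit of 6 libraries (0.225). The gene lies at chr8:93927846-93956247 (mm39), in a cluster of carboxylesterase genes of similar sequence.

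The other 2 called genes are not clearly separable from other loci, since the table splits reads that fit several genes. Rpl31-ps8, a processed pseudogene of the ribosomal protein gene Rpl31 at chr15:90648482-90648859 on the minus strand, read 0.00673, 0.0647 and 0.486 in WT_tumor and 726, 129.8 and 208 in KO_tumor livers. WT_tumor values were all below 1 read, which makes KO_tumor at least 139-fold higher against a floor of 3 reads per library (limma adjusted p = 0.00633, and 0.125 in the fit of 6 libraries). It was also at 34.9, 62.1 and 44.7 in KO and at most 0.769 in WT livers without a tumour, so that it stood with the genotype in all 12 libraries. Its parent Rpl31 did not, at 400.5, 402 and 325 in WT_tumor and 289, 456 and 520.5 in KO_tumor livers. Both Rpl31-ps8 and Mtdh are on chromosome 15. Gm17644, a long non-coding RNA gene at chr1:12737787-12743314 that was named after its values were seen, read 122, 77.5 and 107 in WT_tumor and under 1 read in every KO_tumor liver. WT_tumor was at least 26.3-fold higher against the same floor (limma adjusted p = 0.0151), but KO livers without a tumour read 227, 17.1 and 50.2, so the gene was not silent in the other KO livers. Its call was lost without WT_tumor replicate 1 (limma adjusted p = 0.149), without WT_tumor replicate 3 (0.131), with quantile normalization (0.0945), with a pseudocount of 10 (0.0578) and in the fit of 6 libraries (0.236).

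Further genes with small p did not pass. They were picked among genes whose groups did not overlap, so their lack of overlap is part of the choice. The same holds for Acot3, Fabp1, Cish, Me1, Angptl8, Mlxipl, Sdf2l1, Col3a1, Spcs3 and Steap4, which are given further below. Traf4, a signalling adaptor of the TRAF family, read 277, 307 and 220.3 in WT_tumor and 947, 682 and 642 in KO_tumor livers (1.49 ± 0.23, limma adjusted p = 0.0509). Hamp2, a hepcidin-like gene, read 74.2, 613 and 32.1 against 1943, 2434 and 1618 (4.10 ± 0.71, limma adjusted p = 0.0736). Hamp2 in KO_tumor livers was thus near the tumour-free range of 1833 to 2975, and WT_tumor livers were far below it. Slc10a2, the ileal-type bile acid transporter, read 7333, 3929.5 and 5236 against 1709, 1076 and 1253 (−2.01 ± 0.35, limma adjusted p = 0.0736). Fst, which encodes the activin-binding protein follistatin, read 2373, 940.4 and 1438 against 256, 402 and 458 (−2.03 ± 0.35, limma adjusted p = 0.0736). Enpp6, a choline phosphodiesterase, read 379, 367 and 336 against 27.1, 78.0 and 86.9 (−2.64 ± 0.52, limma adjusted p = 0.111). In these last 3 genes every KO_tumor liver lay below every WT_tumor liver, as the choice required. Fam114a1 and Cnih1, a cargo receptor of the secretory pathway, had log2 fold changes of −1.31 and −1.04 and also missed the threshold.

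**Figure D2:**
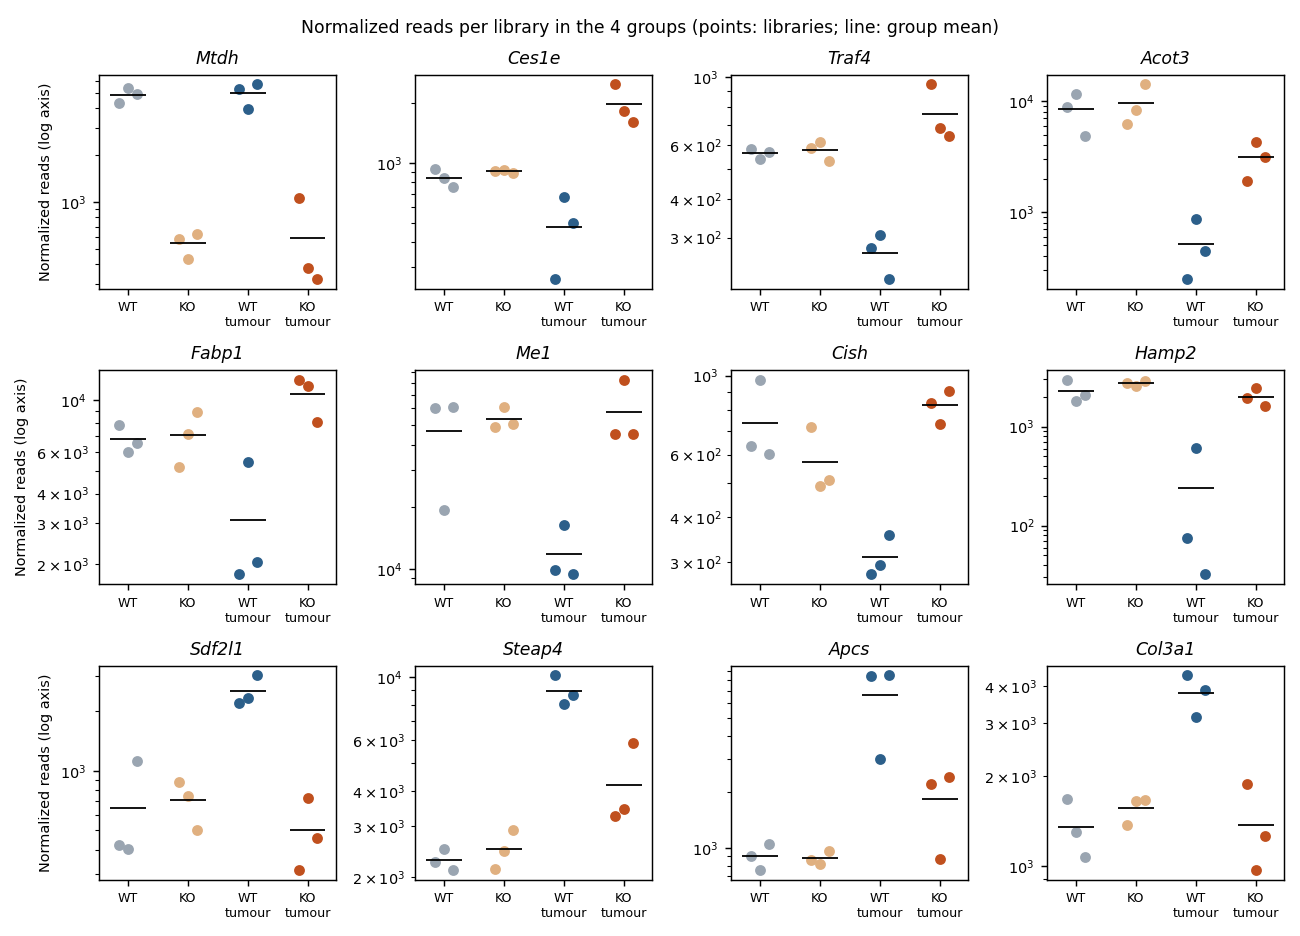
Normalized reads of 12 genes in each library on log axes, with points for the 3 mice of each group and a line at the group mean. In Ces1e, Acot3, Fabp1, Me1, Cish and Hamp2 WT_tumor has the lowest mean of the 4 groups, and in Sdf2l1, Steap4, Apcs and Col3a1 all WT_tumor points lie above all other points.

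The genes are described next by function, from 46 lists of 862 symbols of which 789 were tested. The 16 lists given in detail were chosen after their values were seen, and a list has no test of its own here. Each is given by its counts and median beside the values over all genes above. By limma with all 12 libraries weighted equally 0 members of any list passed except Mtdh. Without WT_tumor replicate 2, limma called 8 of the 25 PPARα targets, 5 of 26 fatty acid oxidation, 1 of 24 lipogenesis, 7 of 23 lipoprotein and 4 of 28 nuclear respiration genes higher, and 4 of 33 acute phase and 2 of 28 unfolded protein response genes lower. With library weights the counts in the same order were 10, 10, 8, 10 and 16 higher, and 13 and 9 lower. In the opposite direction 1 acute phase gene was called higher under both settings, and 2 lipoprotein genes lower with library weights. Of the 79 named genes 41 passed without WT_tumor replicate 2 and 67 with library weights.

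Most genes of fatty acid catabolism had positive fold changes in KO_tumor livers, with none past the threshold. Of 27 listed PPARα targets 25 were tested, 20 had a positive fold change, the median was 0.84 and 8 (32.0%) lay above WT_tumor without overlap, against 8.69% of all genes. The tumour-free median of the same list was 0.07. Acot3, a peroxisomal acyl-CoA thioesterase, read 249, 859 and 448 in WT_tumor and 1903, 4288 and 3154 in KO_tumor livers (2.69 ± 0.45, limma adjusted p = 0.0736). Its KO_tumor values were all above WT_tumor but below all tumour-free livers, which read 4877 to 14228. The cytosolic thioesterase Acot1 read 25.1, 73.7 and 12.8 against 417, 175 and 100.3 (2.701 ± 0.60, limma adjusted p = 0.132). Fabp1, the main fatty acid binding protein of hepatocytes, read 1811, 5441 and 2049.8 against 12186, 11421 and 8072 (1.93 ± 0.35, limma adjusted p = 0.0888). KO_tumor livers were within or above the tumour-free range of 5189 to 8864, and WT_tumor replicates 1 and 3 were below it.

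Other PPARα targets and the receptor genes gave no such separation. Cyp4a10, a fatty acid hydroxylase and a classical PPARα target, read 429, 1770.1 and 477 in WT_tumor and 2081, 2085 and 1546 in KO_tumor livers, where the groups overlap and both are far below the tumour-free 8923 to 19053. Cpt1a, the gate of mitochondrial fatty acid entry, had a log2 fold change of −0.24 ± 0.36 (limma adjusted p = 0.746). The log2 fold change was 0.25 ± 0.33 in Ppara itself and 0.09 ± 0.24 in Rxra (limma adjusted p = 0.707 and 0.87), both within their errors. Among 26 genes of mitochondrial and peroxisomal fatty acid oxidation 22 had a positive fold change, with a median of 0.46 and 10 (38.5%) above WT_tumor without overlap. They include the peroxisomal thiolase Acaa1b (1.71 ± 0.43), the enoyl-CoA isomerase Eci1 (1.08 ± 0.28), the carnitine transferase Cpt2 (0.84 ± 0.24) and the long-chain dehydrogenase Acadl (0.80 ± 0.22), none of which passed. The direct repeat that PPARα and RXR read together, searched as AGGTCA, any 1 base and AGGTCA again on either strand, was in 0 of the 19 listed targets with a RefSeq promoter window (250 bases before to 50 after the start) and in 13 of all 27025 genes (0.0481%), which says only that these exact letters are not in those windows. The median of the PPARα targets was 0.56 without WT_tumor replicate 1 or without KO_tumor replicate 2.

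Lipid synthesis genes also had positive fold changes. All 24 lipogenesis genes were positive, with a median of 0.90 against 0.26 without a tumour, and 16 (66.7%) lay above WT_tumor without overlap. Me1, the malic enzyme that supplies NADPH, read 9838, 16315 and 9384 in WT_tumor and 44877, 82497 and 45145 in KO_tumor livers (2.26 ± 0.41, limma adjusted p = 0.0893). KO_tumor livers were within or above the tumour-free range of 19270 to 60978 and WT_tumor livers below it. Fasn, the fatty acid synthase, read 106698, 36916 and 81459 against 247671, 180291 and 129705 (1.39 ± 0.69, limma adjusted p = 0.355). Mlxipl, the carbohydrate-responsive transcription factor ChREBP, read 3124, 2369.8 and 2723 against 5767, 4905 and 6256 (1.04 ± 0.20, limma adjusted p = 0.111). The other master regulator of the pathway, Srebf1, had a log2 fold change of 0.26 ± 0.40 (limma adjusted p = 0.754), and its sign turned to −0.18 with library weights. Pnpla3, a lipid droplet lipase, read 69.2, 92.9 and 80.8 against 377, 341 and 418 (2.22 ± 0.55), and Thrsp, a lipogenic cofactor, read 6938, 1955 and 3741 against 18360.2, 12019.8 and 11342 (1.87 ± 0.48). WT_no_tumor replicate 2 also had low lipogenic values, such as 19270 for Me1 and 17861 for Fasn against 148513 and 156046 in the other WT_no_tumor livers, so such values also occur in a liver with no tumour.

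Most lipid export and storage genes had positive fold changes as well. Of 23 lipoprotein genes 19 had a positive fold change (median 0.67, 10 or 43.5% above without overlap and 1 below). Angptl8, a feeding-induced inhibitor of lipoprotein lipase, read 133, 190.1 and 191 in WT_tumor and 1275, 907 and 528 in KO_tumor livers (2.32 ± 0.44, limma adjusted p = 0.111). Its KO_tumor values were all above the tumour-free range of 132 to 478. The log2 fold change was 1.58 ± 0.41 in the apolipoprotein gene Apoa2 and 0.92 ± 0.24 in Apoh, and neither passed. Of 17 tested lipid droplet genes 14 had a positive fold change (median 0.62, 8 or 47.1% above without overlap). Among them were the droplet coat genes Plin2 (1.19 ± 0.37) and Plin5 (1.13 ± 0.35) and the lysosomal lipase Lipa (0.69 ± 0.17), all short of the threshold. Of 24 cholesterol synthesis genes 12 had a positive and 12 a negative fold change (median 0.02), 1 lay above and 2 below without overlap. Cyp7a1, whose product sets the pace of bile acid formation, had a log2 fold change of −0.39 ± 0.48 (limma adjusted p = 0.689), and of 0.15 without KO_tumor replicate 2.

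Genes of retinoid handling, the pathway that feeds RAR and RXR, had a median of 0.58 with 13 of 15 tested genes positive and 6 (40.0%) above WT_tumor without overlap. Cyp26b1, which degrades retinoic acid and is itself induced by it, read 29.5, 33.8 and 23.2 in WT_tumor and 471, 129 and 540.1 in KO_tumor livers (3.44 ± 0.93, limma adjusted p = 0.165). Every KO_tumor liver was above every WT_tumor liver. The plasma retinol carrier Rbp4 (1.07 ± 0.24), the retinol saturase Retsat (1.53 ± 0.35) and the retinol dehydrogenase Rdh16 (1.71 ± 0.42) had positive fold changes that did not pass. Without KO_tumor replicate 1 the median of retinoid handling was 0.34.

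Mitochondrial respiration genes of the nuclear genome were the list with the most members at an unadjusted p under 0.05. Of 28 such genes 26 had a positive fold change, 18 were at an unadjusted p under 0.05 and 17 (60.7%) lay above WT_tumor without overlap (median 0.73, and 0.22 without a tumour). Atp5b, the catalytic subunit of ATP synthase, read 5566, 9279.9 and 5538 in WT_tumor and 19393, 12358 and 12714 in KO_tumor livers (1.14 ± 0.24, limma adjusted p = 0.13). KO_tumor replicate 1 was the highest of the 6 livers, and all KO_tumor livers were above the tumour-free range of 7336 to 10668. The log2 fold change was 1.07 ± 0.23 in its partner subunit Atp5a1, 1.19 ± 0.25 in the cytochrome gene Cyc1 and 0.81 ± 0.18 in the complex III core gene Uqcrc1, and none passed. The 13 genes on the mitochondrial chromosome had a median of 0.31, with 11 positive and 1 above without overlap. Without KO_tumor replicate 1 the nuclear list had a median of 0.60.

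Detoxification and growth hormone dependent genes of hepatocytes had medians that single livers moved. Of 28 xenobiotic metabolism genes 21 had a positive fold change (median 0.62, 9 or 32.1% above without overlap), but the median was 0.34 without KO_tumor replicate 3. The members with the smallest p were the cytochromes Cyp2c38 (0.97 ± 0.22) and Cyp1a2 (0.90 ± 0.25), the epoxide hydrolase Ephx1 (1.06 ± 0.26) and the glutathione transferase Gstt1 (0.96 ± 0.23). Of 27 tested growth hormone dependent genes 18 had a positive fold change (median 0.65), 8 (29.6%) lay above and 1 below without overlap. Cish, a direct STAT5 target, read 277, 294 and 358 in WT_tumor and 838, 734 and 905 in KO_tumor livers (1.42 ± 0.25, limma adjusted p = 0.0802). Its KO_tumor values were within the tumour-free range of 489 to 973, while all WT_tumor values were under it. The major urinary protein gene Mup3 (1.62 ± 0.34) and the sulfotransferase Sult2a2 (1.78 ± 0.39) also had positive fold changes that did not pass. The growth hormone median depended on single livers and was 0.26 without KO_tumor replicate 3, 0.29 without WT_tumor replicate 2 and 0.35 without WT_tumor replicate 3.

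Most acute phase genes had negative fold changes in KO_tumor livers, with none past the threshold. Of 33 tested genes 27 had a negative fold change, the median was −0.71 against 0.25 without a tumour, and 11 (33.3%) lay below WT_tumor without overlap, where 10.1% of all genes did. The median was −0.37 without KO_tumor replicate 2. STAT3, the IL-6 effector, binds a palindrome known as a GAS element, and the promoters of the listed genes were searched for it to show the letters that such a factor reads. The letters TTCNNNGAA were present on either strand in 7 of the 27 listed genes that have a RefSeq promoter in the reference tables, which is 25.9%, and in 9.55% of all 27025 genes with one. A match is a description and not evidence of binding. The windows of the 2 matching genes that are among the named members follow with the element in capitals, 5′ to 3′ on the gene's strand, from RefSeq on build GRCm38.p6, whose coordinates differ from the mm39 of the table.
Steap4, chr5:7960336-7960384, plus strand: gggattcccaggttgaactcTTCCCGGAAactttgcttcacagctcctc
Apcs, chr1:172895270-172895304, minus strand: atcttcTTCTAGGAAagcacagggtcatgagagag

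Steap4, a metalloreductase that inflammation induces in hepatocytes, read 10144, 8077 and 8682 in WT_tumor and 3262, 3454 and 5872 in KO_tumor livers (−1.14 ± 0.22, limma adjusted p = 0.111). All KO_tumor livers were below all WT_tumor livers and above the tumour-free range of 2113 to 2927. Apcs, the pentraxin serum amyloid P and a main acute phase protein of the mouse, read 8458, 2994 and 8510.4 against 2199, 865 and 2403 (−1.85 ± 0.41, limma adjusted p = 0.132). Lrg1, a leucine-rich glycoprotein of hepatocytes and neutrophils, read 26497, 10760.3 and 22005 against 5925, 3091 and 10544 (−1.67 ± 0.44, limma adjusted p = 0.154), also with no overlap. Saa1, which encodes serum amyloid A, read 3981, 359 and 1147 against 19.7, 116 and 205 (−3.90 ± 1.03, limma adjusted p = 0.157), a wide spread within each group. The other 5 genes with the GAS letters had log2 fold changes of −0.58 ± 0.27 (Fgb), −0.06 ± 0.31 (Fga), −0.08 ± 0.26 (Itih4), −0.52 ± 0.39 (Socs3) and 3.90 ± 1.5 (Hamp). Hamp, the iron hormone hepcidin, read 31.0, 5890.1 and 64.2 in WT_tumor and 6843, 2652 and 2265 in KO_tumor livers, where WT_tumor replicate 2 was unlike its group. The groups overlapped in Hamp.

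Most genes of the unfolded protein response had negative fold changes as well. Of 28 genes 22 had a negative fold change, the median was −0.37 against −0.01 without a tumour, and 9 (32.1%) lay below WT_tumor without overlap. ATF6, with the factor NF-Y, acts on the endoplasmic reticulum stress element of chaperone promoters. Its letters, CCAAT and CCACG in this order with any 9 bases between them on either strand, were present in 8 of the 25 listed genes with a RefSeq promoter (32.0%) and in 37 of all 27025 genes (0.137%). The list holds such chaperone genes by choice, so its share is not a result about these livers. A match is a description and not evidence of binding. All 8 genes with a match are shown, Hsp90b1 with both of its copies, because their values differ widely below. The element is in capitals, 5′ to 3′ on the gene's strand, and where it reads CGTGG first it runs in reverse. The build is GRCm38.p6.
Creld2, chr15:88819500-88819558, plus strand: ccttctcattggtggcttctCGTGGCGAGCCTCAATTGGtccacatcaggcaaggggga
Hsp90b1, chr10:86705513-86705571, minus strand: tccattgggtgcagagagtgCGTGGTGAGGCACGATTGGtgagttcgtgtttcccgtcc
Hsp90b1, chr10:86705618-86705676, minus strand: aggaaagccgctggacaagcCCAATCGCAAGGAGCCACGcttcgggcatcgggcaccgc
Hspa5, chr2:34772005-34772063, plus strand: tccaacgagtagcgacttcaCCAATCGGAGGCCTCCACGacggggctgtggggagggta
Dnajc3, chr14:118937807-118937865, plus strand: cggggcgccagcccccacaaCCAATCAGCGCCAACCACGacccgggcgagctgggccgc
Ero1b, chr13:12565662-12565720, plus strand: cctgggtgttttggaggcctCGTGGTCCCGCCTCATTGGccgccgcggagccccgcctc
Canx, chr11:50325780-50325838, minus strand: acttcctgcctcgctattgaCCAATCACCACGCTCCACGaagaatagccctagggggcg
Calr, chr8:84847055-84847113, minus strand: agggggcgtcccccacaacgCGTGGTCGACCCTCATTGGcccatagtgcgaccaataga
Pdia6, chr12:17266471-17266529, plus strand: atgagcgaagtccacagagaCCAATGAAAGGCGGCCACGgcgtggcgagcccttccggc

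Creld2, a secreted chaperone, read 643, 439 and 354 in WT_tumor and 259, 136 and 133 in KO_tumor livers (−1.47 ± 0.44, limma adjusted p = 0.198). Hsp90b1, the chaperone GRP94, read 33417, 29099 and 34211 against 18244, 18986 and 20388 (−0.75 ± 0.18, limma adjusted p = 0.145). Hspa5, the chaperone BiP, read 16554, 17111 and 14421 against 13689.5, 10254 and 10291 (−0.50 ± 0.22, limma adjusted p = 0.315). In these 3 genes and in Dnajc3 (−0.42 ± 0.17) the groups did not overlap, with KO_tumor below. The log2 fold change was −0.39 ± 0.32 in Ero1b, and −0.08 ± 0.17 and −0.08 ± 0.21 in the lectin chaperone genes Canx and Calr. The disulfide isomerase Pdia6 had 0.12 ± 0.26, so that the 8 genes ranged from −1.47 to 0.12.

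The search was for exact letters in a short window, so a gene without a match may still hold the element. Sdf2l1, a gene without a match that keeps BiP's client cycle running, had the smallest p of the list. It read 2206, 2322 and 3034 in WT_tumor and 316, 728 and 456 in KO_tumor livers (−2.40 ± 0.39, limma adjusted p = 0.0685), and KO_tumor livers were within or near the tumour-free range of 403 to 1117. Xbp1, whose spliced mRNA encodes a transcription factor of the response, read 15524, 15906 and 19881 against 6793, 9809 and 10616 (−0.93 ± 0.19, limma adjusted p = 0.127). The table does not separate spliced from unspliced Xbp1. Spcs3, a subunit of the signal peptidase in the same compartment and no member of the list, read 8222, 6447 and 8322 against 1936, 3532 and 3433 (−1.41 ± 0.24, limma adjusted p = 0.0736). In Sdf2l1, Xbp1 and Spcs3 alike no KO_tumor liver reached a WT_tumor liver. All KO_tumor livers were also below the tumour-free range of 4367 to 6314 in Spcs3. The summed level of the 28 genes was 198170 to 203650 in WT_tumor and 148900 to 153940 in KO_tumor livers, and 132280 to 151400 in the 6 tumour-free livers.

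**Figure D3:**
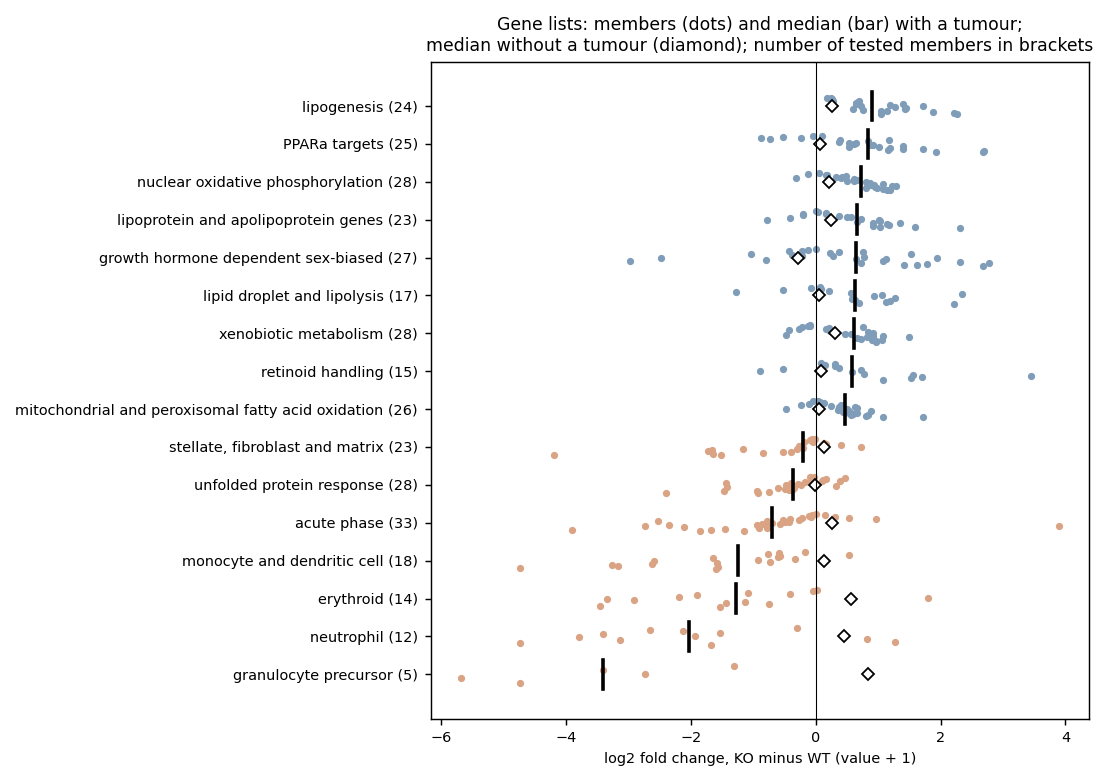
Log2 fold changes of the tested members of 16 gene lists in KO_tumor against WT_tumor livers (dots), with the list median (bar) and the median of the same list in tumour-free livers (diamond) on a shared x axis. Bars of the lipid, retinoid, detoxification and respiration lists lie between 0.46 and 0.90, those of acute phase and unfolded protein response genes at −0.71 and −0.37, and the diamonds of these lists lie nearer 0 or on the other side of it.

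Matrix genes held a few members with large negative fold changes and many near 0, and none passed. Of 23 stellate cell, fibroblast and matrix genes 18 had a negative fold change (median −0.21), and 6 (26.1%) lay below without overlap. The median was −0.55 without KO_tumor replicate 1 and −0.02 without KO_tumor replicate 2. Col3a1, a fibrillar collagen, read 4349.5, 3154 and 3878 in WT_tumor and 1881, 968 and 1262 in KO_tumor livers (−1.51 ± 0.25, limma adjusted p = 0.0685), with KO_tumor near the tumour-free 1072 to 1681. The log2 fold change was −1.64 ± 0.48 in Col5a2, another fibrillar collagen, and −0.85 ± 0.29 in the basement membrane collagen Col4a1. Cpxm1, a secreted carboxypeptidase-like protein, read 233, 184 and 193 against 2.47, 20.8 and 16.9 (−4.20 ± 0.99, limma adjusted p = 0.132). The summed level of the list was 53732 to 76263 in WT_tumor and 53859 to 72731 in KO_tumor livers, with the fibronectin gene Fn1 the largest part.

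Most markers of myeloid and red blood cells had negative fold changes in KO_tumor livers, none passed, and many of them are low genes. A low gene that met the filter through its WT_tumor values alone had to differ, so the counts describe the tested members and not the cell types. Of 19 neutrophil markers 12 were tested, 10 had a negative fold change (median −2.03) and 6 lay below WT_tumor without overlap, with 2 above. S100a8, a calprotectin subunit, read 166, 99.4 and 52.0 in WT_tumor and 0, 13.7 and 50.01 in KO_tumor livers, where replicate 3 came close to the lowest WT_tumor liver. The C-type lectin gene Clec4e read 49.7, 18.7 and 24.4 against 0, 3.25 and 7.69, and the collagenase gene Mmp8 read 31.0, 34.6 and 28.8 against 0, 0 and 0.769, at least 8.09-fold higher in WT_tumor against a floor of 3 reads per library. The defining marker Ly6g was too low to test, at 2.88, 12.96 and 8.86 in WT_tumor and 7.40, 0 and 3.85 in KO_tumor livers. G0s2, a lipolysis inhibitor that neutrophils and hepatocytes share, had the opposite sign, at 107, 182 and 210.3 against 422, 577 and 238 (1.27 ± 0.43).

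Of 13 granulocyte precursor genes 5 were tested, all 5 had a negative fold change (median −3.40) and 3 did not overlap. Prtn3, a granule protease, read 644, 346 and 545 in WT_tumor and 0, 1.95 and 300 in KO_tumor livers, where replicate 3 was unlike the other 2. Chil3, a chitinase-like protein of myeloid cells, read 129.7, 153 and 125 against 0, 9.76 and 11.5, with every KO_tumor liver far below WT_tumor. Lcn2, an iron-binding protein that inflamed hepatocytes also make, read 7219.6, 1252 and 4572 against 648, 139.8 and 1531, and here the groups overlap. Elane, Camp and Ms4a3 were at 0 in all 3 KO_tumor livers and in 1 to 2 of the WT_tumor livers.

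Of 18 tested monocyte and dendritic cell markers 17 had a negative fold change (median −1.25) and 6 (33.3%) lay below without overlap. Ccr2, the chemokine receptor that brings monocytes into tissue, read 475, 622 and 526 in WT_tumor and 182, 157 and 192 in KO_tumor livers (−1.60 ± 0.37, limma adjusted p = 0.132). KO_tumor livers were inside the tumour-free range of 103 to 278. Plac8 read 264, 386 and 425 against 66.6, 94.3 and 259, and the dendritic cell lectin Cd209a read 46.1, 56.2 and 39.8 against 0, 7.15 and 17.7, with no overlap in either. The summed level of the monocyte list was 7532 to 12712 in WT_tumor and 5191 to 6355 in KO_tumor livers, most of it Lyz2. Lyz2 alone read 6889, 8469 and 4532 against 4239, 3364 and 4032. Of 14 tested erythroid genes 12 had a negative fold change (median −1.28). Without overlap 2 (14.3%) lay below WT_tumor and 1 (7.14%) above, near the 10.1% and 8.69% of all genes. The globin gene Hbb-bs read 5434, 3397 and 6188 against 3482, 958 and 1399, the red cell anion exchanger gene Slc4a1 read 416, 30.2 and 95.2 against 37.0, 13.01 and 0.769, carbonic anhydrase Car2 read 781, 432 and 810.2 against 367, 399 and 386 and the transferrin receptor Tfrc, which all dividing cells carry, read 5032, 1138 and 4265 against 937, 1431 and 925. The globin gene Hba-a1 read 749, 733 and 336 against 2331, 314 and 228, and Hba-a2 read 1812, 852.5 and 1843 against 4657, 563 and 1128. In both Hba genes KO_tumor replicate 1 was the highest of all 12 libraries. The groups overlapped in each of these erythroid genes but Car2.

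In KO_tumor replicate 1, the shallowest library, 6 of the 12 neutrophil, 8 of the 18 monocyte and 5 of the 14 erythroid markers were below 1 read. Without it the neutrophil median was −1.60, the granulocyte precursor median −2.90 and the monocyte median −0.72. With a pseudocount of 10 the medians were −1.46, −2.70 and −0.80, and the erythroid median was −0.81. All of these medians cover the same filtered members, so the limit of the filter holds for them too. The summed level of the 19 neutrophil markers was 13540 to 29428 in WT_tumor and 5936 to 15062 in KO_tumor livers, most of it Lrg1. Granulocyte precursor genes summed to 2143 to 8238 and 178 to 1904, most of it Lcn2, and erythroid genes to 7996 to 16655 and 4403 to 13236. The part of these cells in the acute phase and lipid results was not tested. The summed level of hepatocyte genes was 4341500 to 5165800 in WT_tumor and 3613800 to 5704600 in KO_tumor livers, and that of Kupffer cell markers was 21454 to 28020 and 22781 to 24829, so both overlapped. The albumin gene Alb was most of the hepatocyte sum and Slc40a1 the largest part of the Kupffer cell sum, so neither sum measures cell number.

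T cell markers, which the study's title raises, gave little to compare at this depth. Cd8a read 43.2, 49.0 and 81.9 in WT_tumor and 81.4, 22.1 and 11.5 in KO_tumor livers (−0.98 ± 1.21, limma adjusted p = 0.687), with the groups overlapping and KO_tumor replicate 1 among the highest values. Of 30 T and NK cell markers 15 were tested, 10 had a negative fold change (median −0.40) and 1 lay below without overlap. Without KO_tumor replicate 1 the median was −0.03. Their summed level was 942 to 1192 in WT_tumor and 846 to 1263 in KO_tumor livers. Markers of the mammary tumour epithelium summed to 9607 to 11101 and 5620 to 11292, mostly keratin and oestrogen receptor genes that the liver also expresses.

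Whether a knockout effect differed between tumour-bearing and tumour-free livers was tested for each gene as the genotype by tumour interaction. By limma 0 genes had a positive and 0 a negative interaction at an adjusted p under 0.05 (0% each), the smallest adjusted p was 0.732, and 763 genes had an unadjusted p under 0.05. With library weights 1 gene passed, and without WT_tumor replicate 2 there was also 1. Gm17644 had an interaction p of 0.000181 and Clec4e, a lower gene, of 0.000172, both unadjusted. Among genes with a mean of at least 50 in a group, unnamed gene models left out, the smallest were Cish (0.000216 unadjusted), Col3a1 (0.000222), Sdf2l1 (0.000287), Ces1e (0.000287), Cpxm1 (0.000321) and Angptl8 (0.000505), and these did not pass either, so no gene is shown to respond to the knockout differently by tumour state. The knockout effects without a tumour were −0.35 in Cish, 0.23 in Col3a1, 0.27 in Sdf2l1, 0.11 in Ces1e, 2.45 in Cpxm1 and −0.52 in Angptl8. With a tumour they were 1.42, −1.51, −2.40, 2.11, −4.20 and 2.32 in the same order. Cpxm1 was near the floor without a tumour, at 0, 2.10 and 5.68 in WT and 7.56, 15.8 and 22.4 in KO livers. Its tumour-free effect and its interaction therefore rest on low values.

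**Figure D4:**
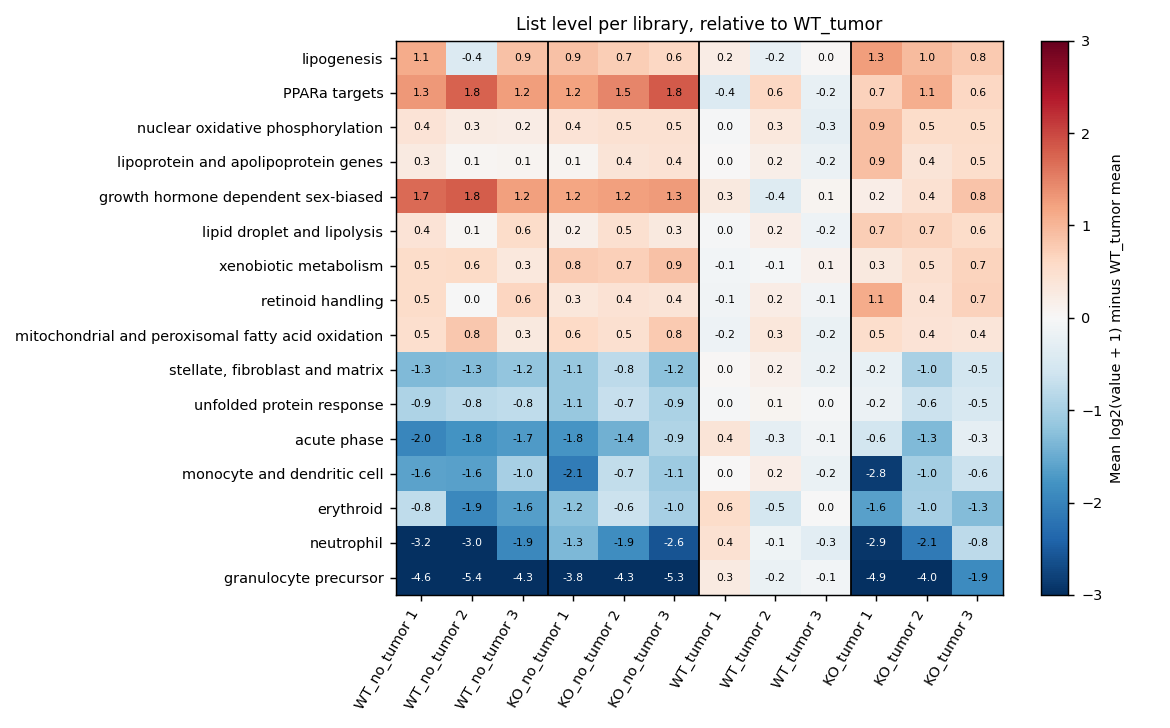
Level of 16 gene lists in each of the 12 libraries, as the mean log2(value + 1) of the tested members minus the WT_tumor mean, with numbers and colour giving the same value. In the acute phase, unfolded protein response and PPARα target lists most KO_tumor livers lie between the WT_tumor and the tumour-free livers or among the tumour-free ones. In the lipid droplet list all KO_tumor livers (0.56 to 0.73) lie above all tumour-free livers (0.07 to 0.55). In the lipoprotein list KO_tumor replicates 1 and 3 (0.91 and 0.54) lie above the highest tumour-free liver (0.44). KO_tumor replicate 1 has the lowest monocyte level of all 12 libraries.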

How the data were processed

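Total RNA of 12 snap-frozen livers was depleted of ribosomal RNA and sequenced, per the labels' protocols. The deposited table gives a normalized signal: the authors divided each gene's estimated reads by a size factor per library. STAR 2.7.8a, Partek, DESeq2 and build mm39 are named in the submitters' processing notes. For the counter, the annotation release and strandedness nothing is given in the sources used here. Values far below 1 read show that reads fitting several genes were split, so overlapping or near-identical genes are uncertain. Depth was estimated as a library's total divided by the value of 1 read. No column was left unmatched.

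Genes at 10 or more in at least 3 of the 6 tumour-bearing libraries were tested by limma 3.58.1 (R 4.3.3, eBayes with trend) after a transform to log2(value + 1). A single fit of all 12 libraries estimated 4 group means, and p-values were two-sided and Benjamini-Hochberg adjusted over 15945 genes (threshold 0.05). Errors are SE. Named genes were 8 fixed genes, the 10 largest increases and decreases that did not overlap and averaged 50 or more (filled by smallest p), the 4 or fewer members of smallest p in each described list and 6 genes by smallest interaction p. Gm17644, Rpl31, Hamp, Cyp4a10, defining cell markers and genes with a promoter element were added after values were seen. Not every gene that meets the rule is reported. The members and lists were chosen with earlier results of these data known. The fit was tested on simulated data. Tables and figures used Python 3.11.15, pandas 2.3.3 and matplotlib 3.10.9.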

Additional observations from a re-analysis of the deposited data

How the results depend on the processing

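Counts of called genes differed with most settings, and 3 livers a group with a median SE of 0.44 limit the precision. Genes higher and lower in KO_tumor livers were 5 and 8 with a pseudocount of 10, 9 and 7 with no filter on low values (22557 genes), 2 and 4 after rescaling to equal totals, 3 and 4 with quantile normalization, 0 and 0 in the 6 tumour-bearing libraries alone, 1018 and 1084 with library weights. Chosen after seeing the data, protein-coding genes alone gave 1 and 1, and leaving out both libraries that stood apart gave 5 and 4. The same replicate numbers did not pair the livers: deviations of same-numbered WT_tumor and KO_tumor livers correlated at −0.04, −0.11 and 0.04, and a fit with the replicate number as a block called 4 higher and 6 lower. Leaving out each replicate in turn gave 1 to 131 higher and 1 to 87 lower, with the high end without WT_tumor replicate 2, a change of −3.81 to −2.95 in Mtdh, 0 to 1 genes with a positive interaction, 0 to 0 with a negative one, and 0 to 0 genes higher and 0 to 1 lower in tumour-free KO livers. With library weights 1 gene had a negative interaction and 1 was higher in KO_no_tumor. Mtdh kept its change of −3.28 in the 6 libraries alone but not its call (limma adjusted p = 0.125). Signs turned in Srebf1 (−0.18 with library weights), Rxra (−0.0105 without KO_tumor replicate 3, and up to 0.26 without replicate 2) and Cyp7a1 (0.15 without KO_tumor replicate 2, and down to −0.85 without replicate 3), and the cause was not tested.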

Other observations

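For further lists the values were as follows, and by limma 0 of their members passed except Mtdh. Cell cycle genes had 17 of 23 tested members with a negative change (median −0.52), and 8 (34.8%) lay below WT_tumor without overlap with 2 above. In the shallow KO_tumor replicate 1, 4 of the 23 were below 1 read, and the list level relative to WT_tumor was −1.34, −0.24 and −0.72 in KO_tumor replicates 1, 2 and 3. Their summed level overlapped, at 6744, 7895.5 and 6370 in WT_tumor and 9947, 10777 and 5409 in KO_tumor livers. Antigen presentation genes had 15 of 20 positive (median 0.58), but the median was 0.11 without KO_tumor replicate 1. Interferon-stimulated genes had 17 of 30 positive (median 0.11), with 2 above and 5 below without overlap. RXR and its partner receptors had 23 of 26 positive with a median of 0.23, and LXR targets 12 of 17 with a median of 0.26. Of 10 genes of MTDH and its reported partners 7 were positive (median 0.13), with 0.41 in Snd1, the nuclease that MTDH binds. Bile acid genes had 17 of 22 positive (median 0.34), with 4 above and 1 below without overlap. Kupffer cell markers had a median of 0.03, endothelial markers 0.14 and cholangiocyte markers −0.31.

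Hamp and Hamp2 were both near their lowest values in WT_tumor replicates 1 and 3, at 31.0 and 64.2 for Hamp and 74.2 and 32.1 for Hamp2, where replicate 2 read 5890.1 and 613. The 2 genes are close copies, and the table splits reads that fit several genes.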
